A study of Mus musculus with 7 samples.

Results

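The phagocyte NADPH oxidase is represented here by 6 genes, chosen by name from the count table: Cybb and Cyba for the membrane part, Ncf1 and Ncf4 for the cytosolic part, the small GTPase Rac2 and the proton channel Hvcn1. All 6 had a row among the 35976 in the table, and all 6 were among the 14679 genes that passed the filter on low counts and were tested. RNA came from magnetically sorted lineage-negative fetal liver cells of E14.5 mice, the fraction left after cells with markers of mature blood lineages are removed. The 3 control libraries were CD45.2(+) Brd9fl/fl and the 4 knockout libraries CD45.2(+) Vav1-iCre Brd9fl/fl, so both groups carried floxed Brd9 alleles on C57BL/6 and only the knockouts carried the recombinase, which is driven by Vav1 regulatory elements and acts in blood cells. What Vav1-iCre does by itself cannot be told apart from the loss of Brd9, a bromodomain subunit of a chromatin remodelling complex. The labels leave unsaid whether libraries stand for separate embryos, so the p-values speak of library-to-library spread, some of which may be technical.

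The oxidase is the enzyme with which neutrophils, monocytes and macrophages reduce oxygen to superoxide to kill microbes. The 2 membrane proteins form a heme-containing cytochrome that passes electrons from NADPH across the membrane. In a resting cell the soluble subunits stay in the cytosol; on activation they and GTP-bound Rac2 join the cytochrome, while Hvcn1 lets protons follow the electrons. Loss of function of the core subunits causes chronic granulomatous disease.

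No member passed the test. All 6 had lower means in the knockouts, at between 62.5% and 83.3% of control, but the groups overlapped for every one. Counts were tested with edgeR's quasi-likelihood test, and the threshold was 0.05 for the p after Benjamini-Hochberg adjustment over all tested genes. Of the 6 members 0 fell, where 0.545% of all tested genes fell (80 of 14679) and 0.0136% rose. At an unadjusted p under 0.05, 3 of 6 members were lower, Ncf1, Ncf4 and Hvcn1, against 6.9% of all tested genes lower and 3.95% higher. Leaving out single libraries took that 3 to 0 without control replicate 2, to 1 without control replicate 3 or any of knockout replicates 1, 2 and 4, and to 5 without knockout replicate 3, and took the 80 to between 19 (without control replicate 3) and 116 (without knockout replicate 3). The share of all tested genes at that unadjusted p was not counted with single libraries left out. DESeq2 called 0 members lower, against 2.27% of genes, and limma-voom 0, against 0.49%. In 0 of 6 members did every knockout lie below every control, a pattern held by 6.81% of tested genes. The median log2 fold change of the 6 was -0.43, beside 0.01 over all tested genes. In bulk RNA, fewer cells of a type and less RNA per cell cannot be told apart.

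Total counts were between 18748885 and 23571878 per library. Brd9 was at 33.1 ± 3.0 CPM (a gene's reads as a share of the scaled library total; SD, n = 3) in control libraries and 11.5 ± 2.0 CPM (SD, n = 4) in knockout libraries, and no knockout library reached a control. The marker genes of the fraction were present, with the summed level of 7 stem and progenitor genes, Kit and Cd34 among them, between 739 and 972 CPM in control libraries and between 557 and 759 CPM in knockout libraries. Kit itself was at 294 ± 24 and 195 ± 24 CPM, and no knockout library reached a control (log2 fold change -0.59; edgeR adjusted p = 0.056, DESeq2 adjusted p = 0.00021). The list did not move as 1. Of its 7 genes 0 passed in edgeR, and the median log2 fold change was -0.01. At an unadjusted p under 0.05 only Kit was lower and 2 genes were higher, and DESeq2 called 1 lower and 0 higher. The summed level of 5 hepatocyte genes was between 9258 and 16273 CPM in control libraries and between 11845 and 21048 CPM in knockout libraries, so RNA of liver parenchyma was present throughout. Knockout replicate 3 stood apart in carrying RNA of CD3 chains, which belong to the T cell receptor complex. Cd3g was at 18.2 CPM and Cd3d at 4.88 CPM, where no other library passed 1.02 and 0.046 CPM.

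Cybb encodes the catalytic subunit gp91phox, which holds the heme groups and the NADPH site. It lies on the minus strand of chromosome X from 9435252 to 9487771 (GRCm38). Control libraries held 44.6, 81.0 and 77.6 CPM, and knockout libraries 32.9, 55.6, 79.95 and 54.4 CPM. Only knockout replicate 1 lay below every control, and knockout replicate 3 stood level with the higher controls. The means were 67.7 ± 20.1 CPM (SD, n = 3) and 55.7 ± 19.2 CPM (SD, n = 4). The log2 fold change was -0.28 (SE 0.28; edgeR adjusted p = 0.757) with a 95% interval from -0.91 to 0.35, which is wide enough to hold both a clear loss and a modest gain.

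Cyba encodes p22phox, the partner that stabilises gp91phox in the membrane and gives the cytosolic subunits a place to dock. It lies on the minus strand of chromosome 8 from 122424776 to 122432930. Its levels were 68.5, 96.8 and 79.96 CPM in control libraries and 52.2, 67.4, 81.2 and 67.7 CPM in knockout libraries. Knockout replicates 2 and 4 were just under the lowest control, and replicate 3 was above both lower controls. The means of 81.7 ± 14.2 and 67.1 ± 11.9 CPM gave a log2 fold change of -0.28 (SE 0.15; edgeR adjusted p = 0.573; 95% interval -0.63 to 0.06). Of the 6 members it had the smallest standard error.

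Ncf1 encodes p47phox, the organiser subunit that is phosphorylated on activation and carries the cytosolic complex to the membrane. It lies on the minus strand of chromosome 5 from 134220053 to 134229625. Control libraries held 120, 212 and 171 CPM, and knockout libraries 79.0, 98.1, 143 and 98.6 CPM. Here 3 of 4 knockouts lay below every control, and only replicate 3 was inside the control range. With means of 168 ± 46 and 105 ± 27 CPM it had the largest difference and the smallest p of the 6, a log2 fold change of -0.68 (SE 0.22; unadjusted p = 0.012, edgeR adjusted p = 0.287; 95% interval -1.17 to -0.18). DESeq2 gave it an adjusted p of 0.081. The authors' deposited table gives a log2 fold change of -0.68 and an adjusted p of 0.086, so it misses the threshold there as well. On the other strand Gtf2ird2 shares 11.1% of Ncf1's exonic bases; its level was 15.8 CPM in control libraries and 18.3 CPM in knockout libraries.

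Ncf4 encodes p40phox, which binds a phosphoinositide of phagosome membranes and sustains the oxidase there. It is encoded on chromosome 15, plus strand, from 78244801 to 78262580. Its levels were 35.3, 58.1 and 49.2 CPM in control libraries and 23.2, 29.8, 45.6 and 29.7 CPM in knockout libraries. The order of the libraries followed that of Ncf1 save that knockout replicates 2 and 4, almost level with each other, changed places. The means of 47.5 ± 11.5 and 32.1 ± 9.5 CPM gave a log2 fold change of -0.57 (SE 0.23; unadjusted p = 0.034, edgeR adjusted p = 0.414).

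Rac2 encodes the Rac GTPase of blood cells, which switches on the assembled oxidase and also drives actin remodelling and migration. It lies on the same chromosome as Ncf4, on the minus strand from 78559167 to 78572783. Control libraries held 218, 311 and 253 CPM, and knockout libraries 170, 217, 281 and 201 CPM. Knockout replicate 2 was just under control replicate 1, the lowest control, and replicate 3 exceeded 2 of the 3 controls. The means were 261 ± 47 and 217 ± 47 CPM, a log2 fold change of -0.26 (SE 0.17; edgeR adjusted p = 0.636; 95% interval -0.65 to 0.12), the smallest of the 6.

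Hvcn1 encodes the voltage-gated proton channel that balances the charge moved by the oxidase, and it is also known from B cells. It is encoded on chromosome 5, plus strand, from 122206804 to 122242297. Its levels were low, 7.88, 14.9 and 12.5 CPM in the controls (171, 360 and 271 reads) and 6.34, 6.68, 11.1 and 7.02 CPM in the knockouts (116, 148, 234 and 144 reads). Again knockout replicate 3 alone lay among the controls. The means of 11.7 ± 3.6 and 7.78 ± 2.22 CPM gave a log2 fold change of -0.59 (SE 0.26; unadjusted p = 0.047, edgeR adjusted p = 0.454). Tctn1, on the other strand, shares 44.2% of Hvcn1's exonic bases, and the strand setting of the counting is not given in the sources used here. Tctn1 stood at 7.29 ± 0.56 CPM in control libraries and 7.86 ± 1.05 CPM in knockout libraries. Of the B cell genes, Pax5 was at or near 0 (0.166 CPM or less) in all libraries, and the summed level of 6 B cell genes was between 5.62 and 10.8 CPM in control libraries and between 4.42 and 8.29 CPM in knockout libraries, nearly all of it Cd79b.

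**Figure D1:**
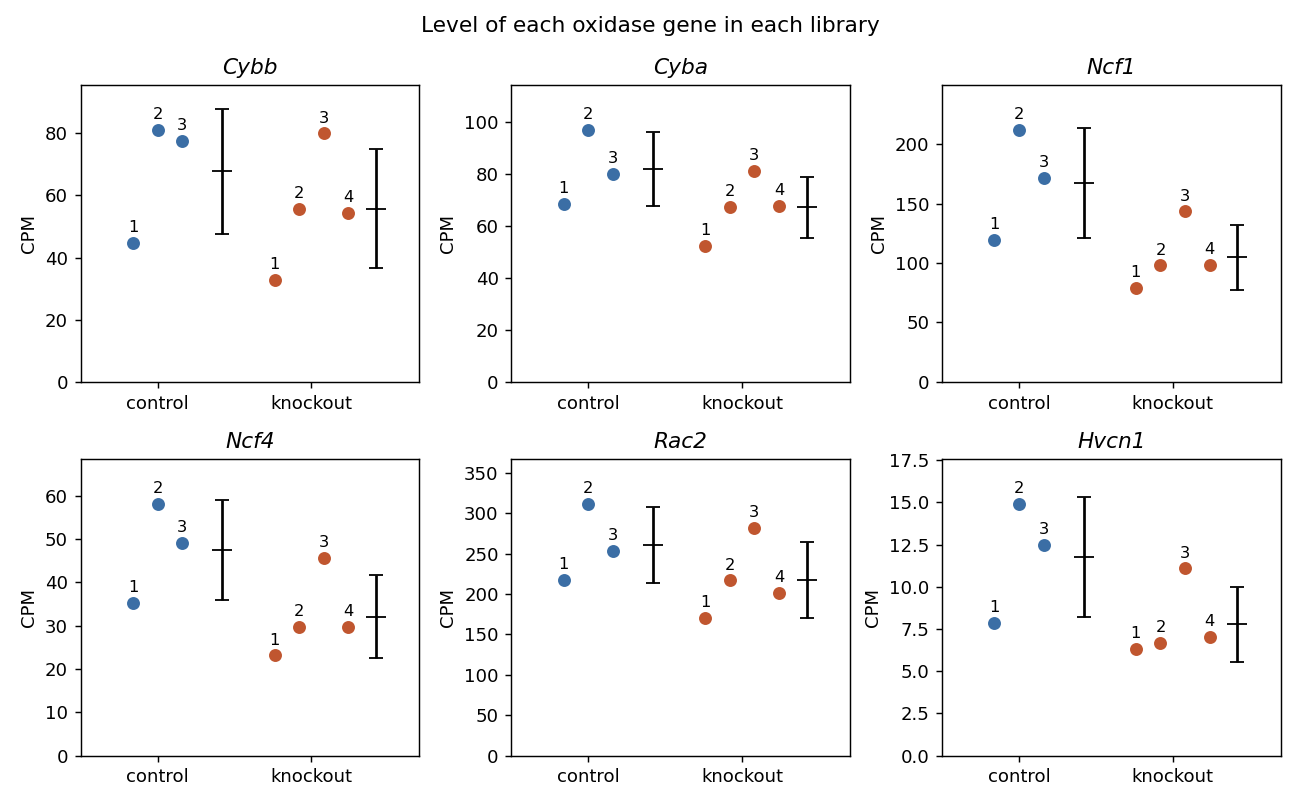
Level of each oxidase gene (CPM, linear axis from 0) in 3 control and 4 knockout libraries, numbered by replicate, with the group mean and SD as a black bar beside the points. In every panel knockout replicate 3 stands inside the control range and control replicate 2 is the highest library.

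**Figure D2:**
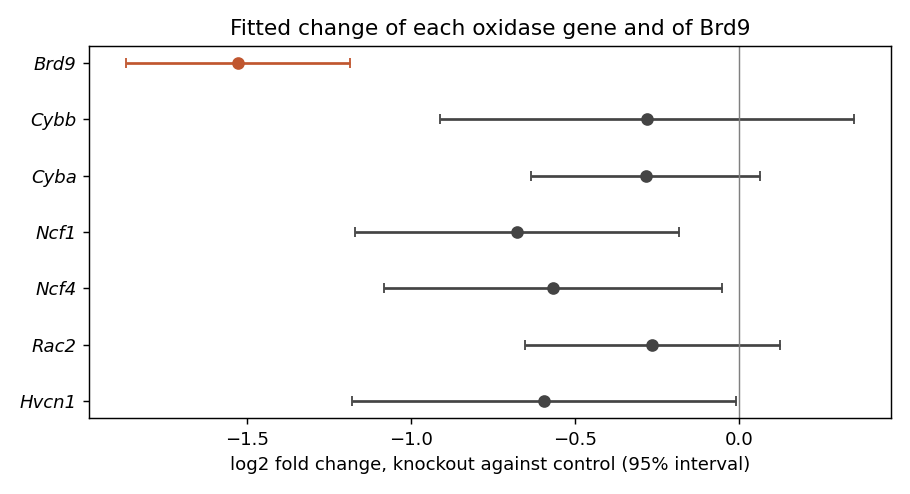
Log2 fold change of knockout against control from edgeR, with its 95% interval before any adjustment for the number of genes tested. All 6 oxidase genes lie below 0, between -0.68 for Ncf1 and -0.26 for Rac2, and Brd9 lies at -1.53.

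Levels of different genes can be compared only per length. Divided by the bases covered by a gene's annotated exons (GENCODE M21, an annotation the counting need not have used), the controls held 84.1 ± 15.2 CPM per kilobase of Rac2, 78.7 ± 13.7 of Cyba, 45.8 ± 12.6 of Ncf1, 23.5 ± 5.7 of Ncf4, 11.7 ± 3.5 of Cybb and 3.30 ± 1.001 of Hvcn1 (SD, n = 3). Rac2 and Cyba were close, with control means 1.07-fold apart, and Rac2 was the higher in 6 of 7 libraries. Every other step of this order held in 7 of 7 libraries. The same length was used in every library, so this agreement does not test the lengths. They join all annotated exons of a gene, 1039 bases for Cyba, 3663 for Ncf1 and 5808 for Cybb. The transcripts present may be shorter, and the order could then differ. By these lengths the catalytic subunit was far less abundant than its membrane partner in both groups. In the knockouts Cybb was at 9.60 ± 3.31 and Cyba at 64.6 ± 11.4 CPM per kilobase.

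The 6 genes went up and down together from library to library. Control replicate 2 held the highest level of all 6 and knockout replicate 1 the lowest of all 6. Knockout replicate 3 lay inside the control range for 6 of 6 members, while knockout replicates 2 and 4 each lay below every control for 5 of 6, with Cybb as the exception in both. The sum over the 6 genes was 494, 774 and 644 CPM in control libraries and 364, 474, 643 and 458 CPM in knockout libraries. Over the 7 libraries the log2 CPM of 2 members had a Pearson correlation between 0.85 (Cybb with Hvcn1) and 0.99 (Ncf1 with Ncf4), with a median of 0.94 over the 15 pairs. After the group means were taken out the median was 0.96. These values share libraries and depth and are a description only. Many other genes ran the same way: between 168 (Cybb) and 370 (Cyba) of 13231 genes passed r = 0.9 with a member. By that measure the nearest other member ranked 70 for Cybb, 30 for Cyba, 19 for Rac2 and 9 for Hvcn1. For Ncf1 and Ncf4 it ranked 1. The shared course was thus not particular to the 6.

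Control replicate 2, the highest in all members, was also the highest control in the summed level of 12 neutrophil genes, at 8572 CPM against 4827 and 6882 CPM in control replicates 1 and 3. Among the knockouts that sum was 1619, 2168, 3728 and 2049 CPM, so replicate 1 was lowest and replicate 3 highest, as in the members. The neutrophil sum lay below every control in 4 of 4 knockouts, unlike the member sums. Mpo was the largest part of that sum in every library. Of these 12 neutrophil genes 5 fell and 0 rose in edgeR. At an unadjusted p under 0.05, 9 were lower and 1 higher, and DESeq2 called 6 lower. The genes did not all stand alike in knockout replicate 3. There Ngp, S100a8 and S100a9 lay inside the control range, Ltf, Lcn2 and Mmp8 above it and the rest below it. The macrophage sum of 10 genes was 259, 160 and 222 CPM in the controls, lowest where the members were highest. In the knockouts it was 76.8, 85.4, 103 and 132 CPM, below every control. There it was lowest in replicate 1, as in the members, but highest in replicate 4. Of the 10 macrophage genes 0 fell in edgeR, with 7 lower at an unadjusted p under 0.05 and 5 lower by DESeq2. Of 7 monocyte genes 1 fell, F13a1, the A chain of coagulation factor XIII, at 89.3 ± 24.4 and 7.82 ± 2.95 CPM (edgeR adjusted p = 0.0017), with 4 lower unadjusted and 2 lower by DESeq2. The monocyte sum was 417, 467 and 572 CPM in control libraries and 663, 376, 290 and 578 CPM in knockout libraries, highest in knockout replicate 1, where the members were lowest, and lowest in knockout replicate 3. Fn1, at 278 ± 91 and 410 ± 199 CPM, was the largest part of it in every library. In control replicate 2 that part was 201 of 467 CPM, and in the other libraries it was most of the sum. Fn1 set this order among the knockouts, with 635, 308, 190 and 507 CPM. The other monocyte genes ran the opposite way among the knockouts, where the sum does not stand for them. Each was highest in replicate 3, and all but Cd14 were lowest in replicate 1, as in the members. Of 7 erythroid genes 0 passed in edgeR, with 3 higher unadjusted and 2 higher by DESeq2. The erythroid sum was 1828, 975 and 1935 CPM in control libraries and between 2011 and 2981 CPM in knockout libraries, so the groups did not overlap. Its largest part in every library was the globin gene Hba-a1, at 660 ± 253 and 1282 ± 274 CPM. Of the 7 genes 6 were higher and 1 lower, and not every gene separated the groups. The part of cell composition in the members' values was not tested.

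**Figure D3:**
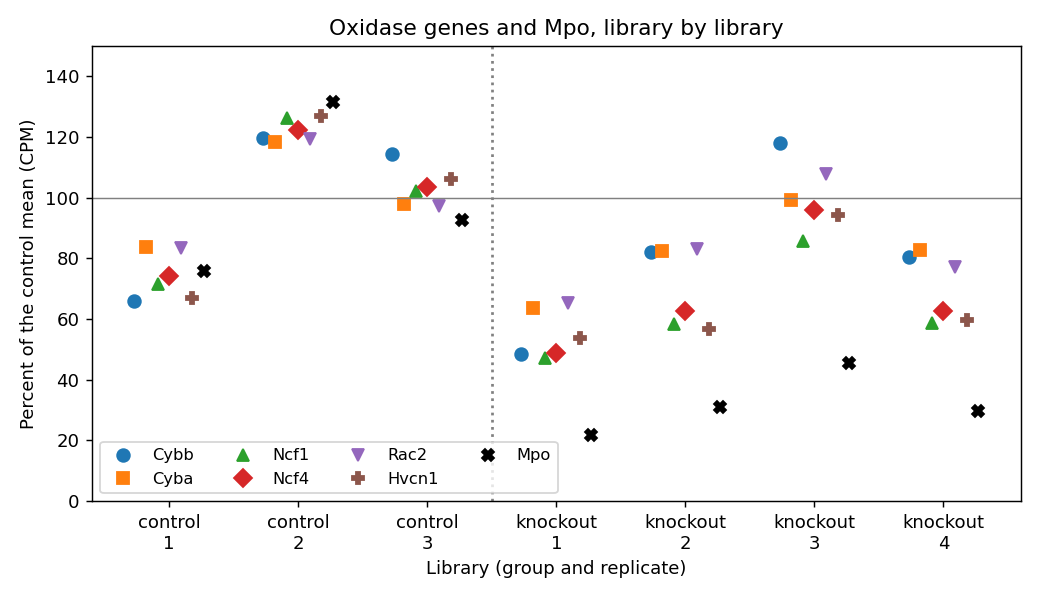
Each oxidase gene and Mpo as a percent of its own control mean (linear axis from 0), in the 3 control libraries to the left of the dotted line and the 4 knockout libraries to its right. The 6 genes shift together, and in every knockout Mpo, at between 21.7% and 45.5%, lies under all of them.

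By the level of Xist, which was between 740 and 802 CPM in 3 libraries and 0.373 CPM or less in the other 4, control replicates 1 and 3 and knockout replicate 2 came from females and the other 4 from males. The sexes were therefore not balanced, and Cybb is X-linked. The only male control was control replicate 2, the library with the highest level of all 6 members, so the 3 male knockouts all lay below it by that fact alone. Between females, with 2 controls and 1 knockout, the knockout lay below both controls for 5 of 6, all but Cybb. For Ncf1 the female controls averaged 146 CPM and the female knockout had 98.1 CPM. With so few libraries of each sex there is no test within either.

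Whether the members differed by unequal amounts was asked through the ratio of 2 members within a library, which does not depend on scaling. An exact two-sided permutation test over the 35 ways of assigning 3 control labels, whose smallest possible p is 0.0286, was run for all 15 pairs. After adjustment over the 15 pairs 0 passed, and the smallest adjusted p was 0.184. At least 9 of the 15 pairs would have had to reach the smallest possible p for any to pass, so that count does not show that the members changed by equal amounts. At an unadjusted p under 0.05 there was 1 pair, Ncf1 with Rac2. The log2 ratio of Ncf1 to Rac2 was -0.66 ± 0.18 (SD, n = 3) in control libraries and -1.06 ± 0.08 (SD, n = 4) in knockout libraries (exact permutation p = 0.0286, adjusted p = 0.184). Cyba and Rac2 kept nearly the same proportion, with log2 ratios of -1.67 ± 0.01 in control libraries and -1.69 ± 0.09 in knockout libraries.

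Mpo, the peroxidase of primary granules that turns the oxidase's hydrogen peroxide into hypochlorous acid, fell. It was at 2661, 4609 and 3255 CPM in control libraries and 761, 1093, 1596 and 1038 CPM in knockout libraries, a log2 fold change of -1.64 (SE 0.25; edgeR adjusted p = 0.023). Leaving out control replicate 2 or 3, or knockout replicate 1, 2 or 4, ended that call, and the adjusted p was then between 0.056 and 0.106. The controls held 59.6, 56.9 and 42.0 reads of Mpo for each read of Cybb and the knockouts 23.1, 19.7, 20.0 and 19.1, so the groups did not overlap and the knockouts were nearly level with each other. For Ncf1, the member with the largest difference, the ratio was 22.2, 21.8 and 19.0 in control libraries and 9.62, 11.1, 11.1 and 10.5 in knockout libraries. Against each of the 6 members, a comparison chosen after the values were seen, the mean log2 ratio of Mpo, with 2 reads added to each count, was lower in the knockouts, by between -0.99 (to Ncf1) and -1.39 (to Rac2). These 6 values share the same Mpo counts and are given as a description, with no test.

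Among the assembly partners, 2 of 5 tested genes were lower and 3 higher. In edgeR 0 passed (1 lower unadjusted, 0 by DESeq2) and the median log2 fold change was 0.01. Nrros, an endoplasmic reticulum protein that lowers the amount of the catalytic subunit, had 91.5 ± 17.6 CPM in control libraries and 67.6 ± 11.5 CPM in knockout libraries (log2 fold change -0.44, edgeR adjusted p = 0.336). Prdx6, a peroxiredoxin that also has phospholipase activity, was at 392, 342 and 410 CPM in control libraries and 368, 349, 430 and 309 CPM in knockout libraries, so the groups overlapped (log2 fold change -0.07, SE 0.12, edgeR adjusted p = 0.870). Rac1, the widely expressed relative of Rac2, was at 198 ± 16 and 200 ± 10 CPM.

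Of 17 Rac regulators and related GTPases, 13 were lower and 0 passed in edgeR (5 lower unadjusted, 2 lower by DESeq2), with a median of -0.33. Tiam1, a Rac exchange factor, had the smallest p. It was at 63.5, 95.2 and 67.4 CPM in control libraries and 38.6, 52.0, 39.2 and 47.6 CPM in knockout libraries, so the groups did not overlap (log2 fold change -0.76, SE 0.16, edgeR adjusted p = 0.081). Elmo1, a scaffold that works with Dock exchange factors, had 47.2 ± 12.05 and 31.0 ± 3.5 CPM (log2 fold change -0.60, edgeR adjusted p = 0.180). DESeq2 called both, with adjusted p-values of 0.0013 for Tiam1 and 0.033 for Elmo1.

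Of 18 activating receptors and kinases 1 fell, C5ar1, the receptor for complement fragment C5a. It was at 3.23, 4.14 and 3.59 CPM in control libraries and 1.15, 1.17, 1.04 and 1.07 CPM in knockout libraries, well apart but on only 21 to 26 reads in each knockout library (log2 fold change -1.71, SE 0.22, edgeR adjusted p = 0.010). The call was lost without control replicate 3 (adjusted p = 0.072), without knockout replicate 2 (0.055) and with the replicate number as a block (0.053). The list's median was -0.28, with 15 of 18 lower. Of 6 ion and calcium partners 6 were lower and 0 passed in edgeR (3 lower unadjusted, 0 by DESeq2). Orai1, a store-operated calcium channel, had 21.0 ± 2.7 and 15.1 ± 1.6 CPM (log2 fold change -0.47, edgeR adjusted p = 0.220), and Kcnn4, a calcium-activated potassium channel, 136 ± 18 and 109 ± 10 CPM (-0.33, 0.288).

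The supply of NADPH and the enzymes that remove oxidants had medians near 0. Of 9 NADPH supply genes 0 passed in edgeR (1 lower unadjusted, 0 by DESeq2), with a median of -0.04; Pgd, the second dehydrogenase of the pentose phosphate pathway, had 288 ± 21 and 238 ± 17 CPM (edgeR adjusted p = 0.287), and H6pd, which starts that pathway in the endoplasmic reticulum, 74.8 ± 6.0 and 65.2 ± 7.5 CPM (0.561). Of 17 antioxidant enzymes 0 passed in edgeR (2 lower and 1 higher unadjusted, 1 lower by DESeq2), with a median of 0.04. Gsr, glutathione reductase, had 209 ± 17 and 166 ± 13 CPM (edgeR adjusted p = 0.170), and Hmox1, the inducible heme oxygenase, 47.9 ± 18.8 and 21.5 ± 8.1 CPM (edgeR adjusted p = 0.205, DESeq2 adjusted p = 0.013).

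The related oxidases of other tissues were nearly absent. Nox3, Duox2 and Duoxa2 had 0 reads in all 7 libraries, and only 2 of 9 genes of this list were tested. These were Noxo1 and Noxa1, which encode organiser and activator subunits of those oxidases, at 2.51 ± 0.56 and 2.57 ± 0.44 CPM and at 1.26 ± 0.52 and 1.13 ± 0.38 CPM (edgeR adjusted p = 0.974 and 0.907); DESeq2 called 0 and 0 had an unadjusted p under 0.05. Of 4 tested users of oxidants, 2 fell, Mpo and Epx. Epx, the eosinophil peroxidase, was between 37.6 and 81.4 CPM in control libraries and between 2.39 and 4.64 CPM in knockout libraries (log2 fold change -4.20, SE 0.30, edgeR adjusted p = 0.0013).

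Of 12 transcription factors of myeloid genes 1 fell and 11 did not pass, with a median of -0.21. Gfi1, a repressor needed for granulocyte formation, was the one that fell. It was at 32.2, 59.9 and 41.1 CPM in control libraries and 14.9, 12.1, 16.3 and 14.6 CPM in knockout libraries (log2 fold change -1.62, SE 0.20, edgeR adjusted p = 0.0097), a call lost without knockout replicate 2 (adjusted p = 0.051). Spi1, which encodes PU.1 and was picked after its values were seen because PU.1 is a known activator of oxidase genes, was at 63.7, 103 and 74.1 CPM in control libraries and 42.8, 50.5, 75.8 and 50.7 CPM in knockout libraries. Its libraries stood much as the members' did, with knockout replicate 3 inside the control range (log2 fold change -0.54, SE 0.21, edgeR adjusted p = 0.386). The pattern did not single out Spi1. In the same list Irf8, Irf1 and Cebpe were also highest in control replicate 2 and lowest in knockout replicate 1. For these, too, knockout replicate 3 was the highest knockout and inside the control range.

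**Figure D4:**
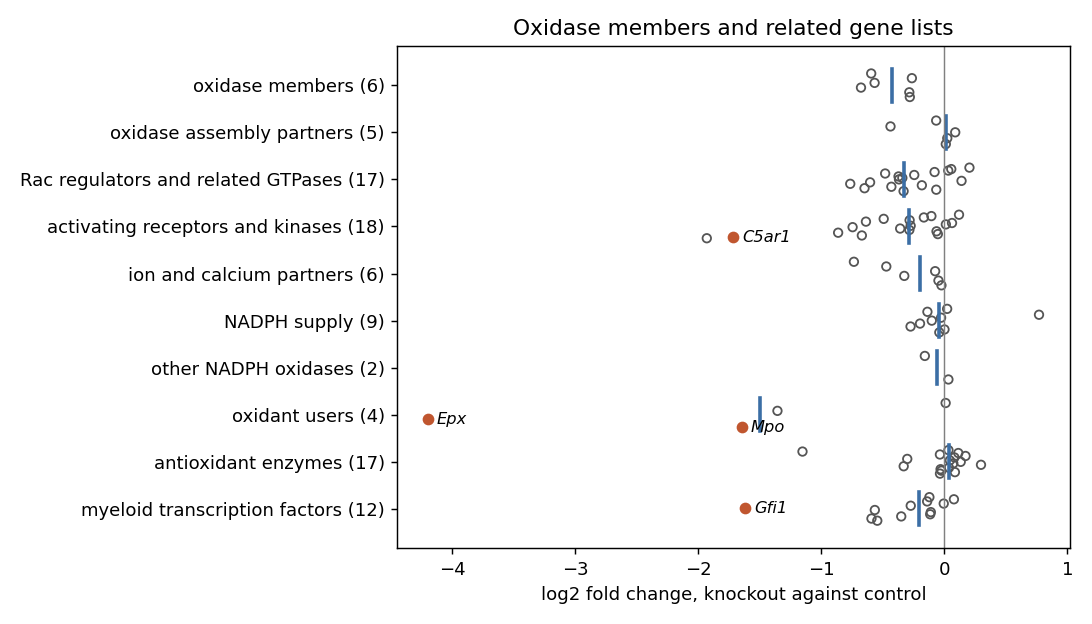
Log2 fold change of the 6 oxidase genes and of the tested genes in 9 related lists (number tested in brackets), with each list's median as a blue bar and genes that passed as filled, named points. None of the oxidase genes passed, and the genes that did, Epx, Mpo, C5ar1 and Gfi1, lie at -1.62 or lower.

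For each member the 3 tested genes whose log2 CPM was most like it over the 7 libraries were found among 13231 genes. Ncf1 and Ncf4 were each other's nearest gene (Pearson r = 0.99). The others nearest to Ncf1 were Rps6ka1, a kinase of the MAP kinase pathway, and a septin whose symbol had been turned into a date, and nearest to Ncf4 were the tetraspanins Cd53 and Cd81. Rac2 lay nearest to Fcgr3, an activating Fc receptor, then Cfap97 and Dok3. Cyba lay nearest to Pik3ip1, Arhgap4 and Tmem150b, and Cybb to Inpp5j, Trim5 and Ear1, an eosinophil ribonuclease with close copies in its family. Hvcn1 lay nearest to Cebpe, a transcription factor of late granulocyte stages, then Ifngr2 and Clic3. Of these 18 entries 0 passed in edgeR, and r was between 0.98 and 0.99. Leaving out single libraries kept between 2 and 8 of the 18 among the nearest 3, so which genes came nearest changed with the libraries used.

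The start sites that RefSeq holds for the members (GRCm38.p6) are shown, for 3 of 6 members. Each line gives the 250 bases before the annotated start, 5′ to 3′ on the gene's strand, with capitals on the ETS core GGAA or its reverse TTCC, the letters at the heart of sites bound by PU.1 and its relatives.
Cybb: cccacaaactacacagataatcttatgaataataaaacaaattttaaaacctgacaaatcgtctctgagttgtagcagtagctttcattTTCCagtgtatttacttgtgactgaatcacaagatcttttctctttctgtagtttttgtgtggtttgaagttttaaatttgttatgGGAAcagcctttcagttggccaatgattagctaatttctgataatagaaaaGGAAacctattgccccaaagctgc
Cyba: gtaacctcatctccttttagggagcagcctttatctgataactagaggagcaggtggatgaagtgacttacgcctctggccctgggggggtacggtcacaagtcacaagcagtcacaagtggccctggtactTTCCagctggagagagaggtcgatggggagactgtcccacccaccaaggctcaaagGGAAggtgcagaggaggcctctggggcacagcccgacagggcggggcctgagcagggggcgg
Ncf1: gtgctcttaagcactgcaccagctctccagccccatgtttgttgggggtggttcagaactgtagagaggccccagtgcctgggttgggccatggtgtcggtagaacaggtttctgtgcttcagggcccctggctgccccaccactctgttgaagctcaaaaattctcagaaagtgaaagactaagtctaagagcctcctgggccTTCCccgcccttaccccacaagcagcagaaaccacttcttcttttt
They cover chrX:9469325-9469574, chr8:122432941-122433190 and chr5:134229626-134229875, all on the minus strand. The start that RefSeq gives for Cybb lies inside the GENCODE gene model, which reaches further upstream.

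The 3 windows differ in composition, with 34.0% G and C bases before Cybb, 60.0% before Cyba and 54.4% before Ncf1. Searched on both strands, GGAA occurred 3, 2 and 1 times, where 93.4% of all 32851 promoter windows of this length hold it and the mean is 2.91. The longer form GAGGAA, which contains GGAA and is closer to the site PU.1 prefers, occurred in none of the 3 windows and in 23.3% of all. Just after the annotated start of Cybb, at bases 10 to 15 of the transcript and on the opposite strand, lies 1 match, shown here with its flanks and with the match in capitals.
Cybb: gttttcatTTCCTCatcagaag
With the 50 bases after the start included, 28.3% of all windows hold that form. CCAAT occurred once before Cybb, and in 33.8% of all windows on either strand. These matches are letters in a window, and binding was not measured here.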

How the data were processed

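RNA was measured by polyA sequencing (TruSeq Stranded mRNA, per the labels' protocols). The authors deposited raw read counts per gene symbol; the submitters' processing notes name HISAT2, the mm10 build and featureCounts. The aligner's settings, annotation, strand setting and versions were not given in the sources used here. The authors' deposited table also holds log2 fold changes with p-values from DESeq2.

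Genes were kept with filterByExpr, scaled by TMM and tested with edgeR 4.0.16 (glmQLFit, glmQLFTest; R 4.3.3) on all 7 libraries with group as the only term and Benjamini-Hochberg adjustment over 14679 genes. CPM are shares of the TMM-scaled total, and log2 CPM had a prior of 2 reads. Intervals use the fit's degrees of freedom. Ratios between members, with 2 reads added to each count, were tested by exact permutation. Gene positions are from GENCODE M21, promoters from RefSeq. In all 21 pairs of libraries the counts differed beyond sampling noise (chi-square per degree of freedom at least 8.5).

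The members and the 21 gene lists, with 179 entries of which 178 had a row (all but Cybc1), were chosen with earlier results of these data known. Some genes are not reported here. Named are the 6 members, Brd9, each pathway list's genes that passed or else the 2 with the smallest p, and each member's 3 nearest genes, with predicted genes, Rik clones and pseudogenes left out. Outside that rule, and picked after their values were seen, are Rac1, Spi1, Irf8, Irf1, Nox3, Duox2, Duoxa2, Xist and the Mpo ratios. So are the genes named from marker lists (Kit, Cd34, Pax5, Cd79b, Cd3g, Cd3d, F13a1, Fn1, Cd14, Ngp, S100a8, S100a9, Ltf, Lcn2, Mmp8, Hba-a1). Tctn1 and Gtf2ird2 are named because they overlap members. Alternatives were other scalings and filters, DESeq2 1.42.0, limma-voom (limma 3.58.1), robust dispersion, a replicate block, Xist as a covariate and leaving out each library.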

Additional observations from a re-analysis of the deposited data

Results flagged for a closer look

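In a group of 4 libraries, a library was singled out where its gap to the nearest other passed Dixon's 95% critical share of the group's range. Of 28 sets of knockout values 3 met this, where chance gives about 1 in 20. Hvcn1 was 11.1 CPM in knockout replicate 3, beside 6.34 to 7.02 CPM in the other knockouts. The summed level of the 12 myeloid transcription factors was 392 CPM in knockout replicate 1, beside 477 to 487 CPM in the others. The summed level of 6 T and NK cell genes was 28.7 CPM in knockout replicate 3, beside 0.655 to 1.66 CPM in the others, and came mostly from Cd3g.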

How the results depend on the processing

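In all 16 alternatives 0 members fell, and all 96 refitted member values were negative and short of the threshold. Single libraries moved them: without control replicate 2 the members' median log2 fold change was -0.27 with 0 of 6 at an unadjusted p under 0.05, and without knockout replicate 3 it was -0.65 with 5 of 6, Ncf1 having the smallest adjusted p (0.093). Ncf1 ranged from -0.87 to -0.47 and Cybb from -0.51 to -0.10 when single libraries were left out. The number of changed genes, 82, became 228 with no filter on low counts and 393 with DESeq2, and ran from 20 to 120 when single libraries were left out. The labels do not state that the numbers pair libraries, and they were not taken to do so. Deviations of libraries with the same number had correlations of 0.33, 0.13 and 0.056 over 9770 genes. Libraries with different numbers were not compared, so these values cannot decide whether the numbers pair them. With a replicate block, which gives knockout replicate 4 a block of its own, 121 genes changed, 0 members fell, 5 of 6 were lower unadjusted (all but Rac2), C5ar1 lost its call (adjusted p = 0.053) and Tiam1 (0.017) and Kit (0.028) gained one. Both also passed with no filter on low counts (0.013 and 0.011). With single libraries left out Noxa1 ran from -0.38 to 0.21 and was positive only without control replicate 3. Noxo1 ran from -0.093 to 0.23 and was negative without control replicate 1 (-0.034), control replicate 3 (-0.074) or knockout replicate 2. Prdx6 ran from -0.16 to 0.0048, was positive only without knockout replicate 4 among these, and was 0.0035 with the replicate block. In these fits the cause was not tested. The difference in the log2 ratio of Mpo to a member ran from -1.52 to -0.94 over the 6 members when single libraries were left out. With 3 and 4 libraries, the intervals of Cybb, Cyba and Rac2 include 0, and a difference of the size seen in Ncf1 did not pass over all genes.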
